A study of Homo sapiens with 8 samples.

Results

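The genes described here are 10 core members of the Notch pathway, the receptors NOTCH1, NOTCH2 and NOTCH3, the ligands DLL1, DLL3, JAG1 and JAG2, and the transcriptional repressors HES1, HES6 and HEY1. They were chosen by name, as the rows of the count tables whose Ensembl identifier carries these symbols in GENCODE, and all 10 were found among the 60668 genes in the files. RNA-Seq libraries of polyA+ RNA came from D283-OMO cells, a line made from D283 MED, itself established from a MYC-driven medulloblastoma, by lentiviral transfer and hygromycin selection. All 8 libraries carry the doxycycline (DOX)-inducible OMOMYC transgene, which encodes a dominant-negative MYC mini-protein. The 4 OMO libraries were left untreated, and the 4 OMO+DOX libraries, labelled as MYC-inhibited, received DOX for 72 h. DOX-treated cells without the transgene were not analysed here, so DOX and OMOMYC cannot be told apart as the agent of a difference.

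Notch signalling passes between cells in contact. A ligand of the Delta or Jagged family on the surface of a cell binds a Notch receptor on its neighbour, the receptor is cut by ADAM10 and then by gamma-secretase, and the released intracellular part joins RBPJ and a Mastermind protein on DNA to switch on HES and HEY genes. HES and HEY proteins repress proneural genes, and in the developing cerebellum and forebrain this holds progenitors undifferentiated. HES6 is the exception in this family, since it opposes HES1 and favours neuronal differentiation.

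With DOX, the ligand DLL1 rose 20.6-fold, while HES6 fell 7.28-fold, HEY1 fell 3.85-fold and HES1 fell 2.28-fold. The receptors NOTCH1 and NOTCH2 rose by less than the ligand, 1.38-fold and 1.45-fold, and the ligands JAG2 and JAG1 fell 1.70-fold and 1.36-fold. NOTCH3 and DLL3 did not pass the test. In all, 3 of the 10 members were higher and 5 were lower when the edgeR quasi-likelihood test was adjusted after Benjamini and Hochberg over all 15222 genes tested and read at 0.05. Of all genes tested, 38.5% were higher and 38.1% were lower, so the number of members called lies near what the transcriptome as a whole shows. With scaling to library size only, 7157 genes were higher and 4715 lower, against 5868 and 5793 with TMM scaling, and DLL3 passed as higher as well. The libraries of the groups did not overlap for 8 of the 10 members, beside 71.7% of all genes. At the stricter thresholds of the study's methods (FDR under 0.001, log2FC beyond 2 in either direction), DLL1 and HES6 were differentially expressed, 2 of 10 members beside 7.12% of all genes. An FDR of 0.01, which the study also names, gave the same count of members. DLL1 exceeded 1 CPM in OMO+DOX libraries alone, so it entered the test only through the group where it is high. Where more than 1 CPM was required in more than 4 libraries, DLL1 was not tested and HES6 still passed the stricter thresholds. Of 14301 genes tested under that filter, 562 passed them. The median log2FC was -0.23 over the 10 members and 0.01 over all genes. Fewer cells that make an RNA and less of that RNA per cell cannot be told apart in bulk libraries.

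**Figure D1:**
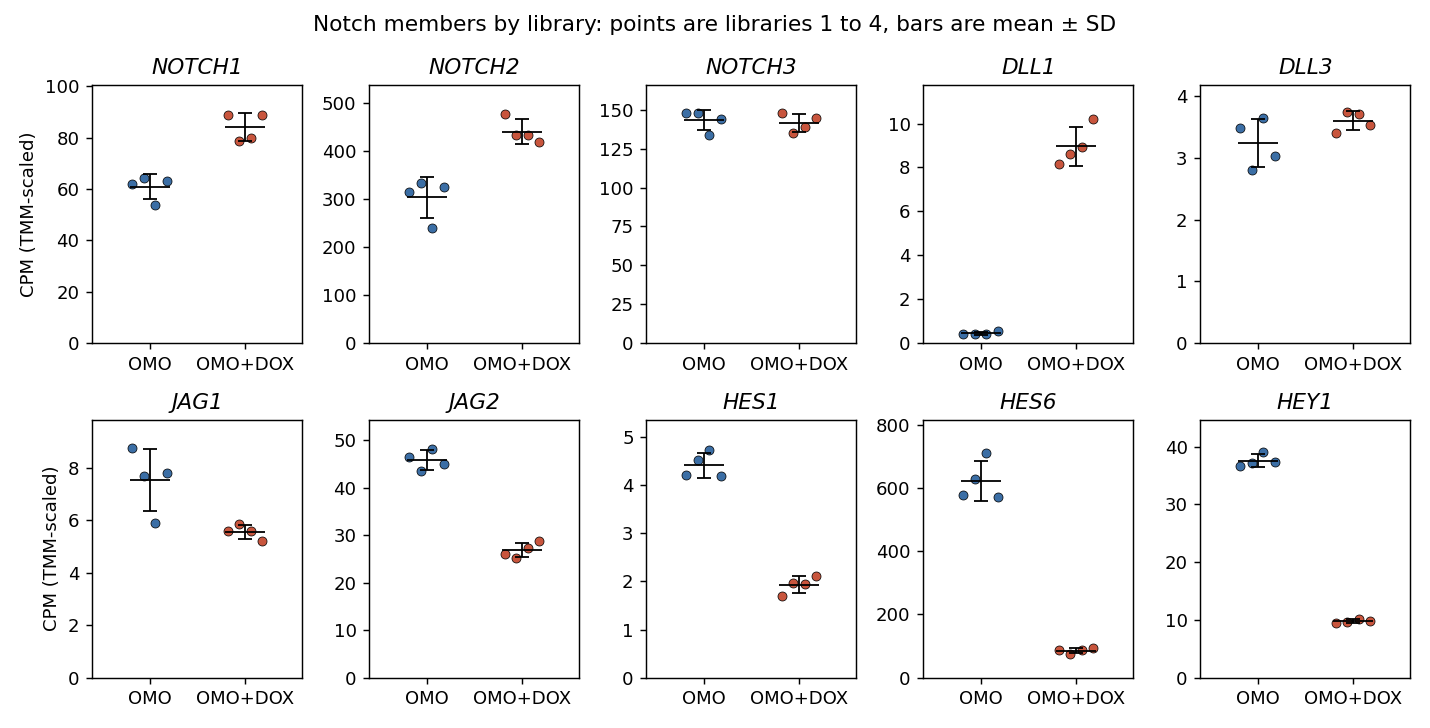
CPM (counts scaled to library size with TMM factors) of the 10 Notch members in each library, with 4 OMO libraries in blue, 4 OMO+DOX libraries in red and mean ± SD as bars, each axis starting at 0. DLL1 stood at 0.388 to 0.538 CPM in OMO and 8.14 to 10.2 CPM in OMO+DOX libraries, HES6 went the other way from 572 or more to 92.6 or less, and the groups overlap for NOTCH3 and DLL3 alone.

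Total counts ranged from 38390696 to 54020506 per library, and 3 counts, taken as the floor of detection, corresponded to at most 0.0748 CPM. CPM is a gene's count scaled to the size of its library. Across genes, log2 CPM correlated between 0.9925 and 0.9984 within groups and between 0.901 and 0.916 across them. CAD and NCL, known MYC targets, were lower with DOX, at a log2FC of -0.48 (SE 0.05) and -0.44 (SE 0.04). MYC itself stood at 939 ± 75.6 CPM in OMO and 1120 ± 56.8 CPM in OMO+DOX libraries (SD, n = 4 each), a row that may also take up reads of the OMOMYC transgene. Of 6 markers of the line, 3 were higher, 2 lower and 1 too low to be tested, beside 38.5% of all genes higher and 38.1% lower. OTX2, a transcription factor typical of this tumour, fell from 1050 to 510.0 CPM and SYP, a synaptic vesicle protein, from 55.4 to 49.0 CPM. NES, an intermediate filament of neural progenitors, rose 3.77-fold from 59.8 to 225 CPM and the neuronal tubulin TUBB3 rose 1.66-fold, while the neuronal gene STMN2 stayed at or under 0.204 CPM. Among markers of other cell types, the 4 haematopoietic genes summed to at most 0.665 CPM in any library, and PECAM1 and TEK, 2 of the 5 endothelial markers, had at most 3 counts in every library. The summed level of 5 endothelial markers was 3.07 to 4.08 CPM in OMO and 5.46 to 6.18 CPM in OMO+DOX libraries, of which CDH5, with no counts in OMO, reached 1.85 CPM, a rise of at least 27.5-fold, and KDR rose 7.89-fold while VWF fell 2.63-fold. Fibroblast markers summed to 35.0 to 37.4 CPM in OMO and 55.6 to 69.1 CPM in OMO+DOX libraries. PDGFRB, a receptor of mesenchymal and mural cells, rose 2.98-fold from 13.5 to 40.4 CPM. COL1A1, at 22.1 and 23.4 CPM, did not pass the test. COL1A2, COL3A1 and DCN were under 1 CPM throughout. COL1A2 went down from 0.223 to 0.011 CPM and DCN from 0.601 to 0.0117 CPM, while COL3A1 went up from 0.0051 to 0.335 CPM. Glial markers summed to 48.0 to 51.9 CPM and 16 to 18.5 CPM, nearly all of it SLC1A3. The part of such cells in the Notch results was not tested.

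OMO replicate 3 stood apart from the other OMO libraries by gene length. It was the lowest OMO library for NOTCH1, NOTCH2, NOTCH3 and JAG1, the 4 members with merged exons of over 8000 bp, and the highest for 5 of the other 6. Over all genes, its log2 CPM deviated from the mean of the other OMO libraries by a median of -0.17 for 3100 genes over 8000 bp and 0.13 for 3876 genes under 3000 bp. The same 4 members were 0.13 to 0.43 lower in it on the log2 scale, and HES6 was 0.26 higher. Without this library 3 members were still higher and 5 lower.

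**Figure D2:**
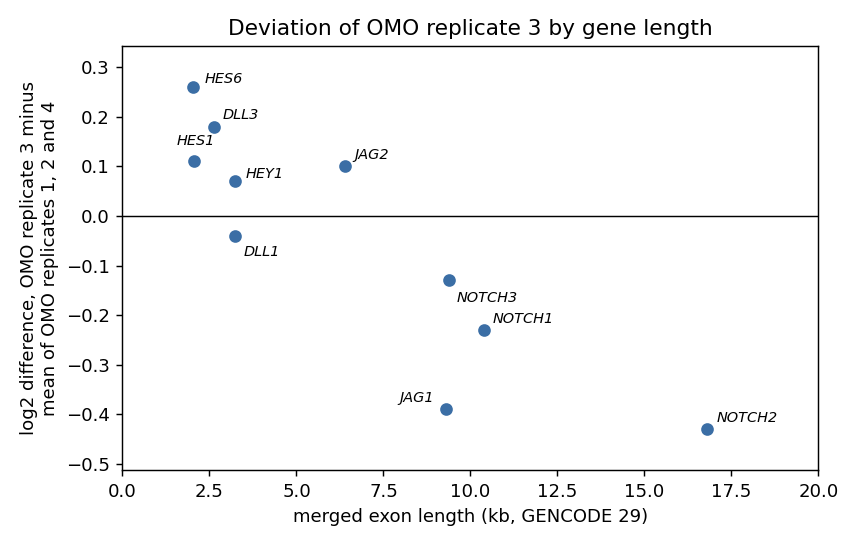
Log2 difference of OMO replicate 3 from the mean of OMO replicates 1, 2 and 4 (vertical axis, from log2(CPM + 1)) against merged exon length in kilobases (horizontal axis), 1 point for each member. The 4 longest members lie between -0.13 and -0.43, and HES6, at 2037 bp, lies at 0.26.

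Among the ligands, DLL1, a Delta-type activator of Notch on neighbouring cells, went from a low level to a clear one. DLL1 (ENSG00000198719.9, chromosome 6, minus strand, 170282206 to 170306565 in GENCODE 29 on GRCh38) stood at 0.388, 0.406, 0.407 and 0.538 CPM in OMO replicates 1 to 4. In OMO+DOX replicates it stood at 8.14, 8.6, 8.91 and 10.2 CPM. Every OMO+DOX library lay far above every OMO library, and OMO replicate 4 was the highest of the untreated ones. These levels rest on 19 to 24 counts per OMO library and 345 to 463 counts per OMO+DOX library. The log2FC was 4.36 (SE 0.13, edgeR adjusted p = 6.25e-11), the 196th largest rise among the 15222 genes tested. DLL1 entered the test only through OMO+DOX libraries, the group where it is high, so this p and rank carry that limit. The genes whose profile over the 8 libraries lay nearest to that of DLL1, by the distance between centred log2(CPM + 1) values, were DPYSL5 (distance 0.211), SH3GL3 (0.254) and P2RY8 (0.261). Each rose with DOX, and SH3GL3 did so from 0.419 to 8.32 CPM.

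JAG2 (ENSG00000184916.9, chromosome 14), a Jagged-type ligand, had the highest level per length of the ligands in both groups. It stood at 46.5, 43.4, 48.2 and 45.0 CPM in OMO and 26.1, 25.2, 27.3 and 28.8 CPM in OMO+DOX libraries. All treated libraries were lower, with a log2FC of -0.77 (SE 0.05, edgeR adjusted p = 1.09e-07). Its exons share 469 bases with AL512356.1 on the same strand, a row at 0.407 CPM in OMO libraries, and its expected count was not whole in 6 of 8 libraries.

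JAG1 (ENSG00000101384.12, chromosome 20), the other Jagged ligand, was scarcer. OMO libraries gave 8.77, 7.68, 5.92 and 7.82 CPM, and OMO+DOX libraries gave 5.6, 5.86, 5.59 and 5.20 CPM. The groups were parted only narrowly, by OMO replicate 3 at 5.92 CPM against OMO+DOX replicate 2 at 5.86 CPM. The log2FC was -0.44 (SE 0.11, edgeR adjusted p = 0.00338), and -0.55 (SE 0.08) without OMO replicate 3. Its exons share 79 bases with AL050403.2 on the opposite strand, a row at 0.0107 CPM in OMO libraries.

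DLL3 (ENSG00000090932.10, chromosome 19), a divergent Delta-like protein that stays largely inside the cell and does not activate Notch on neighbours, gave 3.49, 2.81, 3.64 and 3.03 CPM in OMO libraries. OMO+DOX libraries gave 3.41, 3.74, 3.71 and 3.54 CPM, within reach of the untreated range. Its log2FC of 0.15 (SE 0.10) did not pass the test (edgeR adjusted p = 0.198).

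Divided by merged exon length, so that genes can be set side by side, the 4 ligands together held 9.34 ± 0.419 CPM per kb in OMO and 8.95 ± 0.473 CPM per kb in OMO+DOX libraries (SD, n = 4 each). The libraries of the groups overlapped, from 8.81 to 9.69 and from 8.52 to 9.58, and the exact permutation p was 0.257 (two-sided). The composition of this sum shifted. DLL1 made up 1.45% ± 0.255 of ligand RNA in OMO and 31.0% ± 1.42 in OMO+DOX libraries, while JAG2 went from 76.6% ± 1.09 to 46.9% ± 1.03 (SD, n = 4 each, exact permutation p = 0.0286 for both). That p is the smallest that 4 libraries against 4 allow. The shares of DLL3, 13.2% and 15.4%, and of JAG1, 8.71% and 6.70%, overlapped between the groups (exact permutation p = 0.0571 and 0.114). Shares within a sum depend on each other, so a rise of DLL1 lowers the others.

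**Figure D3:**
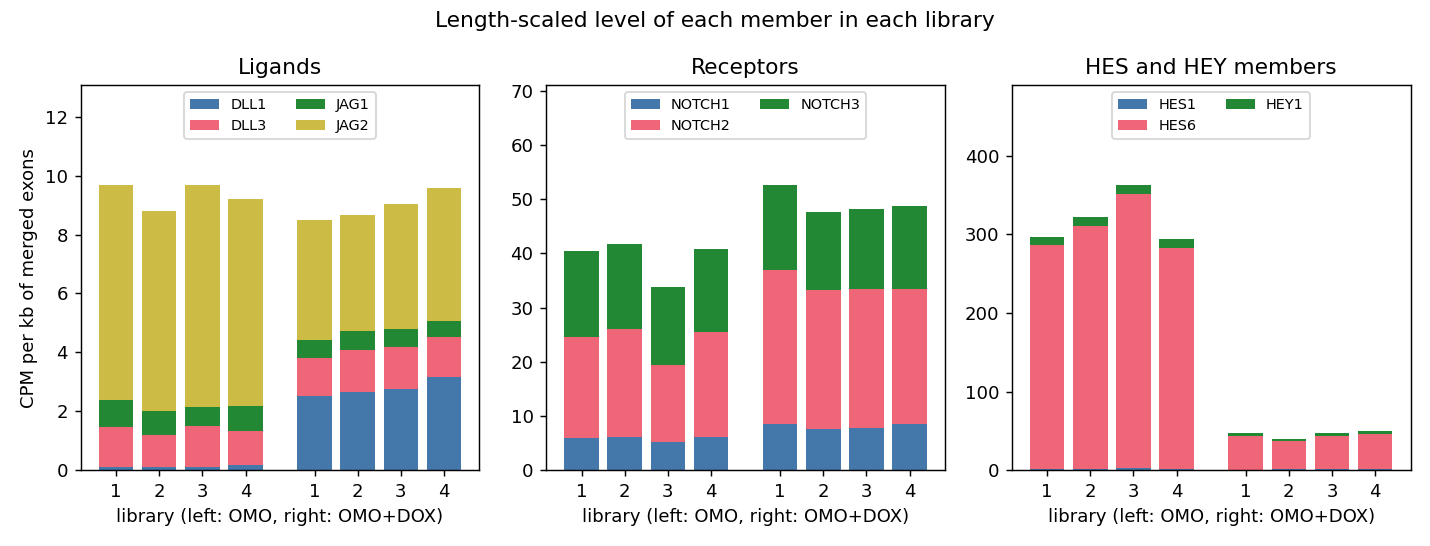
Length-scaled level (CPM per kb of merged exons) of each member in each library, stacked by class, with OMO libraries 1 to 4 on the left and OMO+DOX libraries 1 to 4 on the right of each panel and every axis starting at 0. The ligand stacks stay between 8.52 and 9.69 while their DLL1 part is larger and their JAG2 part smaller with DOX. The receptor stacks are taller with DOX, and the HES and HEY stacks, most of each being HES6, shrink from 294 or more to 49.5 or less.

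Among the receptors, the largest part of the rise came from NOTCH2. NOTCH2 (ENSG00000134250.20, chromosome 1) is a widely expressed receptor and had the highest mean level per length of the 3 here. It stood at 313, 333, 240.0 and 325 CPM in OMO and 476, 432, 433 and 417 CPM in OMO+DOX libraries. The treated libraries were all higher, and OMO replicate 3 was low among the untreated. The log2FC was 0.54 (SE 0.09, edgeR adjusted p = 0.000214), and 0.44 (SE 0.05) without OMO replicate 3. NOTCH2 shares near-identical exons with the NOTCH2NL genes, and its expected count was not whole in 7 of 8 libraries, so its value is uncertain to that extent. The most abundant of these copies, NOTCH2NLC, stood at 20.8 CPM in OMO and 26.3 CPM in OMO+DOX libraries, and the sum of NOTCH2 with all NOTCH2NL rows had a log2FC of 0.52 (SE 0.09).

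NOTCH1 (ENSG00000148400.12, chromosome 9) gave 62.0, 64.3, 53.6 and 63.2 CPM in OMO and 88.9, 78.6, 79.9 and 88.7 CPM in OMO+DOX libraries. No library of either group reached into the other, and the log2FC was 0.47 (SE 0.07, edgeR adjusted p = 5.37e-05). NOTCH3 (ENSG00000074181.9, chromosome 19), known for its role in vascular smooth muscle, gave 148, 148, 134 and 144 CPM in OMO and 148, 135, 139 and 145 CPM in OMO+DOX libraries. Its values covered the same range in both groups, with a log2FC of -0.02 (SE 0.05, edgeR adjusted p = 0.763).

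The receptors are long, and gene length moved with the treatment across the transcriptome. Of the 3100 genes tested with over 8000 bp of merged exons, 48.3% were higher and 30.6% lower with DOX, with a median log2FC of 0.14. Of the 3876 genes under 3000 bp, 28.7% were higher and 43.2% lower, with a median of -0.12. Among members over 8000 bp, the log2FC was 0.47 for NOTCH1, 0.54 for NOTCH2, -0.02 for NOTCH3 and -0.44 for JAG1. Among those under 3000 bp it was -1.19 for HES1, -2.86 for HES6 and 0.15 for DLL3. A median does not give the spread within a length class. OMO replicate 3, low for long genes, is among the untreated libraries of this comparison. The part of length in these changes was not tested.

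Per length, the 3 receptors together held 39.1 ± 3.68 CPM per kb in OMO and 49.3 ± 2.24 CPM per kb in OMO+DOX libraries (SD, n = 4 each, exact permutation p = 0.0286). NOTCH2 made up 45.9% ± 2.36 and 53.0% ± 1.47 of receptor RNA and NOTCH3 39.1% ± 2.15 and 30.6% ± 0.786, without overlap between the groups in either case. NOTCH1 held the smallest part, 15% and 16.4%.

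All 3 HES and HEY members fell, and HES6 dominated them by level. HES6 (ENSG00000144485.11, chromosome 2, minus strand, 238238267 to 238240662) was the 219th most abundant of all genes tested in OMO libraries by CPM. It gave 578, 628, 710.0 and 572 CPM in OMO and 88.0, 73.9, 87.4 and 92.6 CPM in OMO+DOX libraries. The lowest untreated library was thus several-fold above the highest treated one. The log2FC was -2.86 (SE 0.09, edgeR adjusted p = 8.66e-11), the 154th largest fall of all genes tested. The nearest profiles over the 8 libraries were those of PRSS56 (distance 0.241), RFTN1 (0.283) and COL2A1 (0.297), which all fell with DOX.

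HES1 (ENSG00000114315.4, chromosome 3, plus strand, 194136145 to 194138732), the classical Notch target and repressor of proneural genes, was scarce. It gave 4.2, 4.53, 4.72 and 4.19 CPM in OMO and 1.70, 1.97, 1.95 and 2.11 CPM in OMO+DOX libraries. The groups did not overlap, and 79 to 100 counts per treated library lay behind the lower level. The log2FC was -1.19 (SE 0.10, edgeR adjusted p = 4.70e-07).

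Promoter sequence is shown for HES6 and HES1 as HES6 is the most abundant member and HES1 the classical target of RBPJ, and both fell. Of the 10 members, 7 had an entry in the RefSeq promoter table (GRCh38.p14), and the 250 bases before the start were searched on both strands for GTGGGAA, a core bound by RBPJ, and for the E-box CACGTG, which MYC and MAX bind. Capitals mark matches, and the bases that GENCODE 29 annotates as exonic are left out. The HES6 stretch is chr2:238240125-238240288, minus strand, and the HES1 stretch is chr3:194135898-194136144, plus strand, both written 5′ to 3′. The start is that of the RefSeq entry. For HES6 it lies inside the GENCODE 29 gene, so the stretch shown is downstream of the 5′ end given above.
HES6: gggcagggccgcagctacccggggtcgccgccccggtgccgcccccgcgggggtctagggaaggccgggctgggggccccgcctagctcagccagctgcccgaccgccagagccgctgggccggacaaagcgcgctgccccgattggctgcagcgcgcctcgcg
HES1: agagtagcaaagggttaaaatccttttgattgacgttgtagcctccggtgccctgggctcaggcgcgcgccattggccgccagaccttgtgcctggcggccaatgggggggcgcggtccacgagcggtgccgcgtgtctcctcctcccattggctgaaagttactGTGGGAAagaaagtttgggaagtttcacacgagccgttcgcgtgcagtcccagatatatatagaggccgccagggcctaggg
HES1 held GTGGGAA once, starting 85 bases before its start, and none of the other 6 members held it, while 5.43% of all 35116 promoters of this length did. None of the 7 held CACGTG, found in 6.34% of all promoters. The N-box CACNAG, a site bound by HES proteins, occurred at 3 positions in HES1 and 1 in NOTCH3, beside 32% of promoters with at least 1. G and C made up 77.2% of the 250 bases of HES6 and 59.2% of those of HES1.

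HEY1 (ENSG00000164683.17, chromosome 8, minus strand, 79764010 to 79767863), a Notch-responsive repressor related to HES1, lay between HES6 and HES1 in level per length. It gave 36.7, 37.1, 39.1 and 37.4 CPM in OMO and 9.40, 9.62, 10.2 and 9.82 CPM in OMO+DOX libraries. Replicates were tight in both groups and far from each other, with a log2FC of -1.95 (SE 0.05, edgeR adjusted p = 1.46e-11).

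Per length, HES6, HES1 and HEY1 together held 319 ± 31.8 CPM per kb in OMO and 45.9 ± 3.98 CPM per kb in OMO+DOX libraries (SD, n = 4 each, exact permutation p = 0.0286), a 6.95-fold lower sum. HES6 made up 95.7% of it in OMO and 91.3% in OMO+DOX libraries, so the lower sum is largely the fall of HES6 given again. Since HEY1 and HES1 fell less than HES6, their shares were larger with DOX, 3.66% and 6.61% for HEY1 and 0.672% and 2.05% for HES1, with no overlap between the groups.

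**Figure D4:**
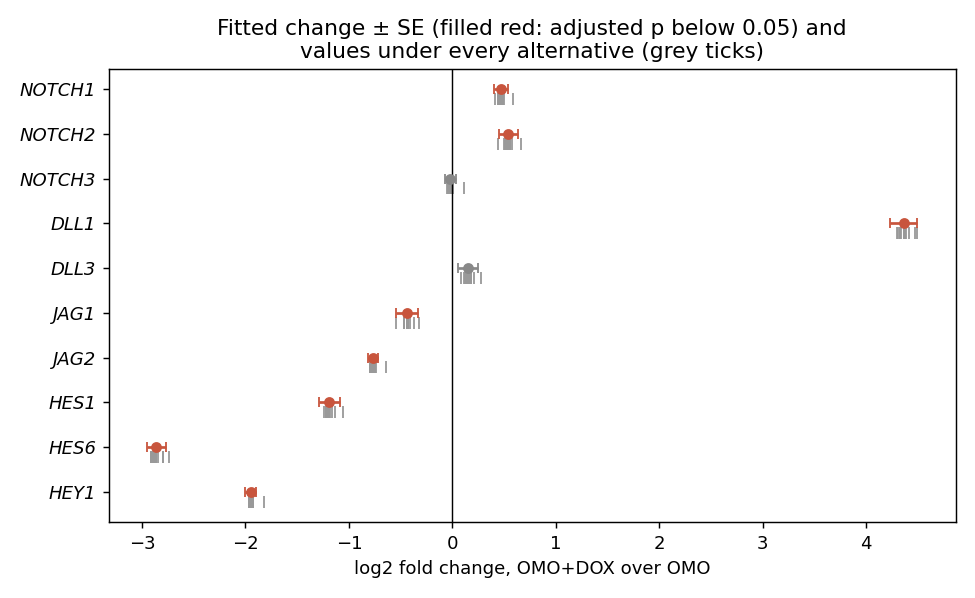
Fitted log2 fold change of OMO+DOX over OMO for each member (points, with SE as bars, red where the adjusted p is below 0.05 and grey otherwise) and its value under each alternative in processing (grey ticks). DLL1 lies at 4.36 and HES6 at -2.86, and the alternatives in which a member was tested lie close to its fitted value for all 10 members. DLL1 has no value where more than 1 CPM was required in more than 4 libraries.

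In order of level per length, OMO libraries ran from HES6 (305 ± 31.4 CPM per kb) over NOTCH2 (18 ± 2.52), NOTCH3 (15.3 ± 0.720), HEY1 (11.6 ± 0.318), JAG2 (7.16 ± 0.321), NOTCH1 (5.86 ± 0.471), HES1 (2.14 ± 0.125), DLL3 (1.24 ± 0.149) and JAG1 (0.812 ± 0.128) to DLL1 (0.135 ± 0.0215), all SD with n = 4. NOTCH2 and NOTCH3 were the only neighbours whose libraries overlapped. In OMO+DOX libraries the order was HES6 (42.0 ± 3.94 CPM per kb), NOTCH2 (26.1 ± 1.5), NOTCH3 (15.1 ± 0.626), NOTCH1 (8.10 ± 0.534), JAG2 (4.2 ± 0.241), HEY1 (3.02 ± 0.103), DLL1 (2.78 ± 0.273), DLL3 (1.38 ± 0.0587), HES1 (0.938 ± 0.0843) and JAG1 (0.598 ± 0.0293). There HEY1 and DLL1 were the only neighbours that overlapped. DLL1 thus moved from the last place to the 7th, and HES1 from the 7th to the 9th.

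The rest of the pathway was read from 7 lists of 71 genes in all, of which 55 were tested, 23 higher and 24 lower with DOX and 8 neither. Their median log2FC was 0.09, and 43 of the 55 had no overlap between the groups. Beside the 38.5% of all genes higher, 38.1% lower and 71.7% without overlap, these counts lie near the transcriptome as a whole, and the single lists below are small and were not tested against it. Among other receptors and ligands 3 of 9 genes were tested and all 3 fell, including DLK2 (log2FC -1.31, SE 0.11), a noncanonical Delta-like protein, and CNTN1 (-0.73, SE 0.08), a neural adhesion molecule. NOTCH4, DLL4, DLK1, DNER, MFAP5 and CNTN6 were too low to be tested. Of these, DLL4 went up from a mean of 0.107 CPM in OMO to 0.479 CPM in OMO+DOX libraries. MFAP5 went from at most 3 counts per OMO library to at least 7 per OMO+DOX library. NOTCH4 went down from 0.443 to 0.293 CPM and DNER from 1.02 to 0.57 CPM, and the groups overlapped for none of these.

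In the list of other HES, HEY and target genes, which also holds BHLHE40 and BHLHE41, 5 of 12 were tested. The 3 that rose were BHLHE41, BHLHE40 and HEYL, and 1, NRARP, fell, beside 38.5% of all genes higher and 38.1% lower. BHLHE41, a repressor linked to the circadian clock, had at most 1 count in any OMO library and stood at 10.2, 10.3, 10.5 and 9.82 CPM in OMO+DOX libraries, at least 152-fold higher than the floor of 3 counts per library. BHLHE41 entered the test only through OMO+DOX libraries, the group where it is high. Its relative BHLHE40 rose 2.73-fold, and NRARP, a feedback inhibitor induced by Notch, fell 1.34-fold from 6.81 ± 0.546 to 5.09 ± 0.314 CPM (SD, n = 4 each). HEYL rose by a log2FC of 0.18 (SE 0.05), and HEY2, at 0.32 (SE 0.21), did not pass. HES2, HES3, HES4, HES5, HES7, HELT and DTX1 were too low to be tested, with HES3 and HES5 at no counts in any library.

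Receptor processing genes changed in both directions. Of 7 genes for glycosylation and maturation 5 were tested, 2 higher and 3 lower, beside 38.5% and 38.1% of all genes. FURIN, the protease of receptor maturation, had a log2FC of 0.28 (SE 0.06), POGLUT1 of -0.28 (SE 0.06) and EOGT, a glycosyltransferase, of -1.45 (SE 0.06). MFNG was too low to be tested. LFNG, a Fringe glycosyltransferase, missed the filter narrowly, since CPM before TMM scaling exceeded 1 in only 3 libraries. It gave 1.08, 1.12, 1.06 and 1.19 TMM-scaled CPM in OMO and 0.513, 0.623, 0.469 and 0.55 CPM in OMO+DOX libraries, without overlap. All 8 cleavage genes were tested, 5 higher and 2 lower, beside the same shares of all genes. The sheddases ADAM17 and ADAM10 rose 1.88-fold and 1.81-fold, and ADAM10 stood at 106 ± 9.82 CPM in OMO and 193 ± 9.04 CPM in OMO+DOX libraries (SD, n = 4 each). Of the gamma-secretase subunits, APH1B (log2FC 2.04, SE 0.19) and PSEN2 (0.85, SE 0.04) rose, and APH1A (-0.42, SE 0.06) and NCSTN (-0.17, SE 0.04) fell. APH1B had 10 to 20 counts per OMO library and entered the test only through OMO+DOX libraries, the group where it is high.

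Of 12 ubiquitin ligases and trafficking genes 8 were higher and 3 lower, beside 38.5% and 38.1% of all genes. DTX4 rose 6.01-fold and DTX2 2.59-fold, both of the Deltex family, and FBXW7, which marks the Notch intracellular domain for degradation, rose 2.01-fold. DTX4 had 11 to 15 counts per OMO library and exceeded 1 CPM in OMO+DOX libraries alone. It thus entered the test, and the count of higher genes, only through the group where it is high. NEURL1B, a ligase that acts on Notch ligands, fell 5.38-fold from 47.7 ± 1.71 to 8.87 ± 1.22 CPM (SD, n = 4 each), and NUMBL fell by 0.78 on the log2 scale (SE 0.07).

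In the nucleus, RBPJ, the DNA-binding partner of all Notch receptors, gave 121, 121, 99.4 and 118 CPM in OMO and 357, 376, 353 and 333 CPM in OMO+DOX libraries. Each treated library lay above each untreated one, with a log2FC of 1.63 (SE 0.07, edgeR adjusted p = 1.24e-09). Of the 10 genes of the activation complex 9 were tested, 3 higher and 3 lower, beside 38.5% and 38.1% of all genes. The acetyltransferase KAT2B rose 3.96-fold, the coactivator MAML2 fell 2.27-fold, and SNW1 fell by 0.46 on the log2 scale (SE 0.05), while RBPJL had no counts.

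All 13 corepressor genes were tested, 2 higher and 9 lower (38.5% and 38.1% of all genes), with a median log2FC of -0.38 (0.01 over all genes). The Groucho-type corepressors, which HES proteins recruit, moved apart. TLE4 rose 13.5-fold from 1.93 ± 0.174 to 26.2 ± 0.308 CPM and TLE1 rose 3.47-fold, whereas TLE3 fell 4.02-fold from 125 ± 2.15 to 31.0 ± 1.82 CPM (SD, n = 4 each).

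**Figure D5:**
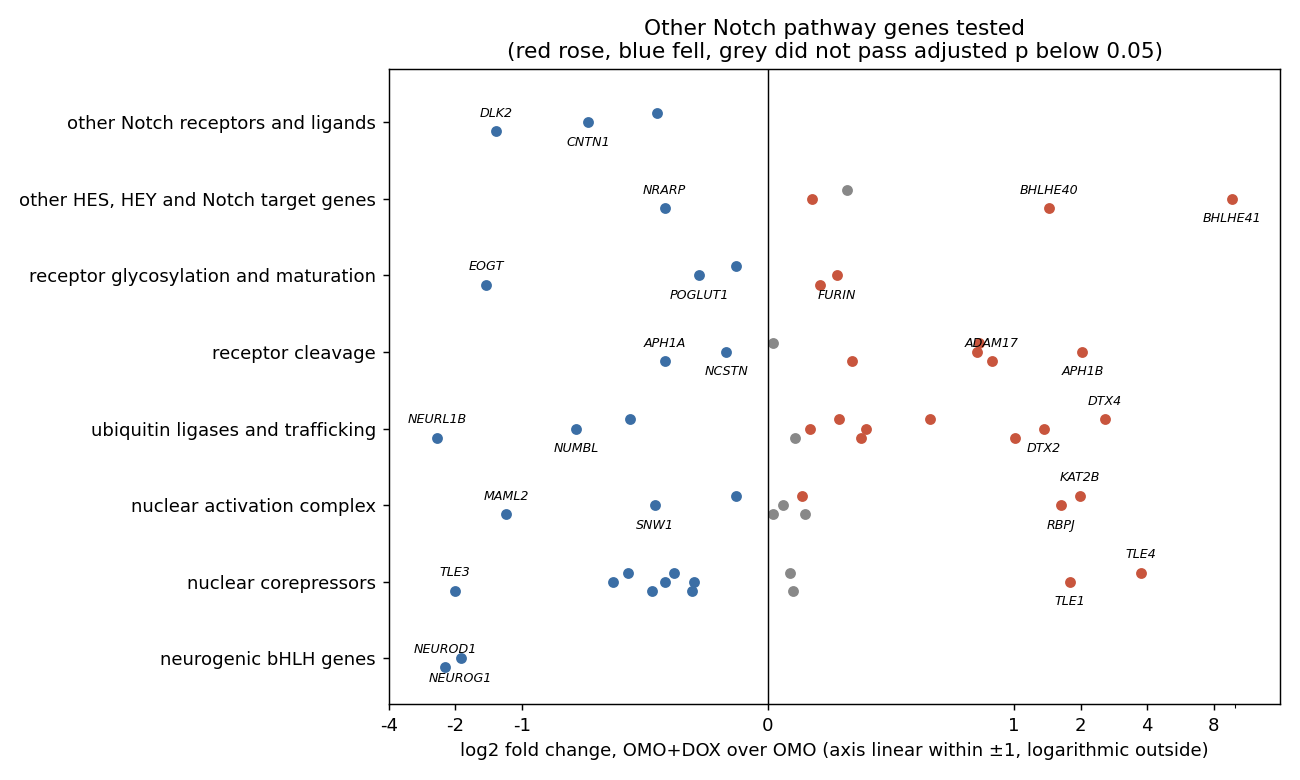
Log2 fold change of OMO+DOX over OMO (axis linear within ±1 and logarithmic outside) for tested genes of the other Notch pathway lists and of the neurogenic bHLH list, 1 row per list, with the genes named by rule labelled. Red points rose, blue points fell and grey points did not pass an adjusted p of 0.05, and the value of BHLHE41, near the floor in OMO, depends on the constant that edgeR adds to counts.

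Of 6 neurogenic bHLH genes, the class that HES proteins repress, 2 were tested and both were lower with DOX, beside 38.1% of all genes. This list is small and was not tested against all genes. NEUROD1 went from 94.4 ± 3.59 to 20.2 ± 0.808 CPM and NEUROG1 from 102 ± 11.3 to 27.6 ± 2.20 CPM (SD, n = 4 each). ATOH1, NEUROG2 and NEUROD4 were among those too low to be tested. NEUROG2 went the other way, from at most 4 counts per OMO library to between 14 and 21 counts per OMO+DOX library.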

How the data were processed

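RNA-Seq libraries of polyA+ RNA from a stranded kit were read for 4 OMO and 4 OMO+DOX replicates, grouped by their titles. Per the labels, Trim Galore, STAR and RSEM were used on GRCh38, and the study's methods name a GENCODE annotation. The authors deposited unnormalized RSEM expected counts per gene. RSEM divides reads shared between genes, and whether counting used strand is not given in the sources used here.

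Expected counts were rounded. Only genes that exceeded 1 CPM (total counts, before TMM scaling) in 4 or more of the 8 libraries were tested with edgeR 4.0.16 in R 4.3.3 (TMM, quasi-likelihood test, no covariates, Benjamini-Hochberg adjustment), after a test of each fit on simulated data. SE is the absolute log2FC over the square root of F. Exact permutation tests are two-sided over the 70 divisions of 4 against 4. Names, positions and lengths come from GENCODE 29 on GRCh38. DESeq2 1.42.0 served as an alternative, beside other scalings, filters, a likelihood ratio test, the replicate block and each library left out.

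Members and lists were chosen with earlier results of these data known. By rule, at most 2 rises and 2 falls per list without overlap between groups were named, beside members, untested list genes and MYC, CAD and NCL. Cell type markers, ADAM10, PSEN2, FBXW7, HEYL, HEY2 and the NOTCH2NL genes were named after their values were seen. Replicates are described as independent biological replicates, and floors cover counting error only. Some genes of the lists are counted but not reported here by name.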

Additional observations from a re-analysis of the deposited data

Results flagged for a closer look

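In 52 groups of 4 values, the gap of an extreme library to its neighbour was set against the range of the group (Dixon). It stood out in 3 of them, where chance gives about 2.6. DLL1 stood at 0.538 CPM in OMO replicate 4, against 0.388 to 0.407 CPM in the other OMO libraries. The share of NOTCH2 in receptor RNA was 50.8% in OMO+DOX replicate 4, against 53.4% to 53.9%. The share of HES1 among HES1, HES6 and HEY1 was 0.630% in OMO replicate 3, against 0.682% to 0.691%.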

How the results depend on the processing

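Over 150 refits of the 10 members, 149 kept the direction, or the side of the threshold, of the values in the report. DLL1 has no refit where more than 1 CPM was required in more than 4 libraries, since it was not tested there. The exception was DLL3, which with scaling to library size only had a log2FC of 0.28 (edgeR adjusted p = 0.0254). That scaling raised the median log2FC of all genes to 0.139 from 0.0121 and the calls to 7157 higher and 4715 lower, against 5868 and 5793. At an FDR of 0.01, added after the data were seen, 2 members still passed the stricter thresholds. Genes past those thresholds numbered 1084, and 562 where more than 1 CPM was required in more than 4 libraries and 2097 with no filter on low counts. Over the alternatives in which each was tested, the log2FC ranged from 4.30 to 4.49 for DLL1 and from -2.91 to -2.74 for HES6. It ranged from -1.97 to -1.82 for HEY1 and from -1.24 to -1.06 for HES1. NOTCH2 ranged from 0.44 to 0.66 and JAG1 from -0.55 to -0.32. NOTCH3 ranged from -0.05 to 0.11 and changed sign across settings without passing the threshold in any. Members higher numbered 2 to 4 and members lower 5 in every refit; the 2 arose where more than 1 CPM was required in more than 4 libraries, which DLL1 cannot reach. Other pathway genes ranged from 20 to 28 higher and from 20 to 26 lower.

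Equal replicate numbers did not pair the libraries: deviations from the group means correlated at 0.22, 0.201, 0.341 and -0.268 for numbers 1 to 4, and not every library correlated best with its own number. With the replicate block, 3 members were higher and 5 lower, with 24 other pathway genes higher and 24 lower, and no member's call changed. Lengths of the longest transcript in place of merged exons left the order of the members unchanged and gave the share of DLL3 among ligands a rise of 2.59 points (exact permutation p = 0.0286). With them the ligand sum was 10.6 CPM per kb in OMO and 9.91 CPM per kb in OMO+DOX libraries, still with overlap. Its exact permutation p was 0.0857, against 0.257 with merged exons. The removal of OMO replicate 3, chosen after the data were seen, gave differences of 8.33 CPM per kb for receptors, -0.272 for ligands and -258 for HES and HEY members. Depth limited HES1 and DLL1 most, and genes with at most 3 counts in a group allow only bounds.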
